A study of Oncorhynchus mykiss with 15 samples.

Results

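The genes described here carry the interleukin-6 type JAK-STAT signal and its feedback inhibitors in livers of the rainbow trout, Oncorhynchus mykiss. They were chosen by name: every gene called il6r, il6st, jak1, jak2, stat3, stat5b, socs1, socs2, socs3 or cish in the deposited table, in any copy and ignoring case. The rule found 30 of 34965 genes and used no expression value. There were 2 copies of il6r, 4 of il6st, 4 of jak1, 4 of jak2, 2 of stat3, 3 of stat5b, 4 of socs2, 3 of socs3 and 4 of cish, and no gene carried the name socs1. Total RNA was sequenced from whole liver tissue of fish 150 days old, in 15 libraries of 5 groups with 3 libraries each. The group labels read N, then H3h, H12h and H24h, then R3h. The study describes itself as following the liver through environmental hypoxia of several durations, but the letters are not spelled out, so the code names are kept. Strain, sex and oxygen level are not given, and all groups share the tissue and the age.

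Interleukin-6 type cytokines bind a ligand-specific chain such as IL6R and signal through the shared chain gp130, which IL6ST encodes. JAK kinases bound to these chains phosphorylate STAT3, which in mammalian liver switches on acute-phase plasma proteins and its own inhibitor SOCS3. SOCS3 then binds the receptor and the kinase and ends the signal. Growth hormone acts on the liver mainly through JAK2 and STAT5, with CISH and SOCS2 as inhibitors induced in turn. The salmonid genome was duplicated as a whole, so most of these genes exist in several copies. Near-identical copies can share reads, and values of single copies are therefore less certain than family sums.

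Levels are given as the authors' FPKM, a unit corrected for gene length and sequencing depth, which can be compared between genes. Comparisons of H24h and R3h with H3h were added after the members' levels in H3h had been seen, so calls in them are no independent evidence. Tests used the deposited counts in edgeR's quasi-likelihood model over all 15 libraries, and a gene counted as called at a Benjamini-Hochberg adjusted p under 0.05. A gene was tested if its FPKM averaged 0.5 or more, which left 17502 genes, 25 of them members. Just inside that limit lay IL6ST 110537852 (mean 0.555 FPKM) and jak1 110509035 (0.573 FPKM). Both reached it only through N and H3h, the only groups where their means were above 0.5 FPKM. Lower calls of these copies in other groups thus partly follow from the filter and are no independent evidence. CISH 110494984 (0.681 FPKM) likewise had means above 0.5 FPKM only in N and H3h, so its lower values elsewhere also partly follow from the filter. Just outside it lay STAT5B 110491683 (0.487 FPKM). The other 4 untested members were Jak2 110536972, the gene named JAK2 110496854, SOCS2 110492178 and CISH 110528417, with means of 0.381, 0.28, 0.0107 and 0.056 FPKM in that order. RefSeq lists 110496854 as jak3, so its name is uncertain. Numbers after a gene name are the gene identifiers of the table.

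Library totals ran between 45.4 M and 70.4 M counts (M, mega). R3h replicate 3 stood apart: its mean correlation with the other libraries of its group was 0.79, against 0.852 to 0.946 for the other 14 libraries, and 835 tested genes had no count in it, against 43 to 189 elsewhere. Results that rest on this library are given with and without it. Whether each library of a group stands for a different fish is not stated, and p-values then cover only the variation among these samples, which may be technical. No N library was taken at each later time, so a group's treatment cannot be told apart from elapsed time or time of day. In RNA from whole liver, fewer cells of a type and less RNA per cell cannot be told apart.

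The feedback inhibitor SOCS3 had its lowest family sums in H24h and R3h, and the receptor chain IL6R its highest in H24h. The families were not tested against each other. Summed over its 3 copies, socs3 was at 62.5 ± 84.1 FPKM in N livers, 72.6 ± 41.1 FPKM in H3h, 25.5 ± 17.7 FPKM in H12h, 4.44 ± 2.16 FPKM in H24h and 4.58 ± 4.2 FPKM in R3h (mean ± SD, n = 3 each). Summed il6r was at 37.3 ± 11 FPKM in N livers, 31.6 ± 6.82 FPKM in H3h, 51.5 ± 8.09 FPKM in H12h, 73.8 ± 9.01 FPKM in H24h and 46 ± 24.6 FPKM in R3h. The R3h libraries had 65.75, 53.86 and 18.46 FPKM, the last being R3h replicate 3. Summed il6st, jak1, jak2, stat3 and stat5b each had their lowest mean in H24h or R3h. In the test for any difference among the 5 groups, 4 of 25 members were called, against 7.24% of all tested genes. At an unadjusted p under 0.05 there were 13 members, against 29% of genes. The called members were Socs3 110499415 (adjusted p = 0.0183), jak1 110530021 (0.0283), IL6ST 110537852 (0.0428) and Il6r 101268967 (0.0487). Leaving out each library in turn, only the Socs3 call held in all 15 fits, with adjusted p between 0.00604 and 0.0496. The jak1 call held in 7 fits, and the IL6ST and Il6r calls in 4 each. These 15 fits called between 1.14% and 15.3% of all genes.

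**Figure D1:**
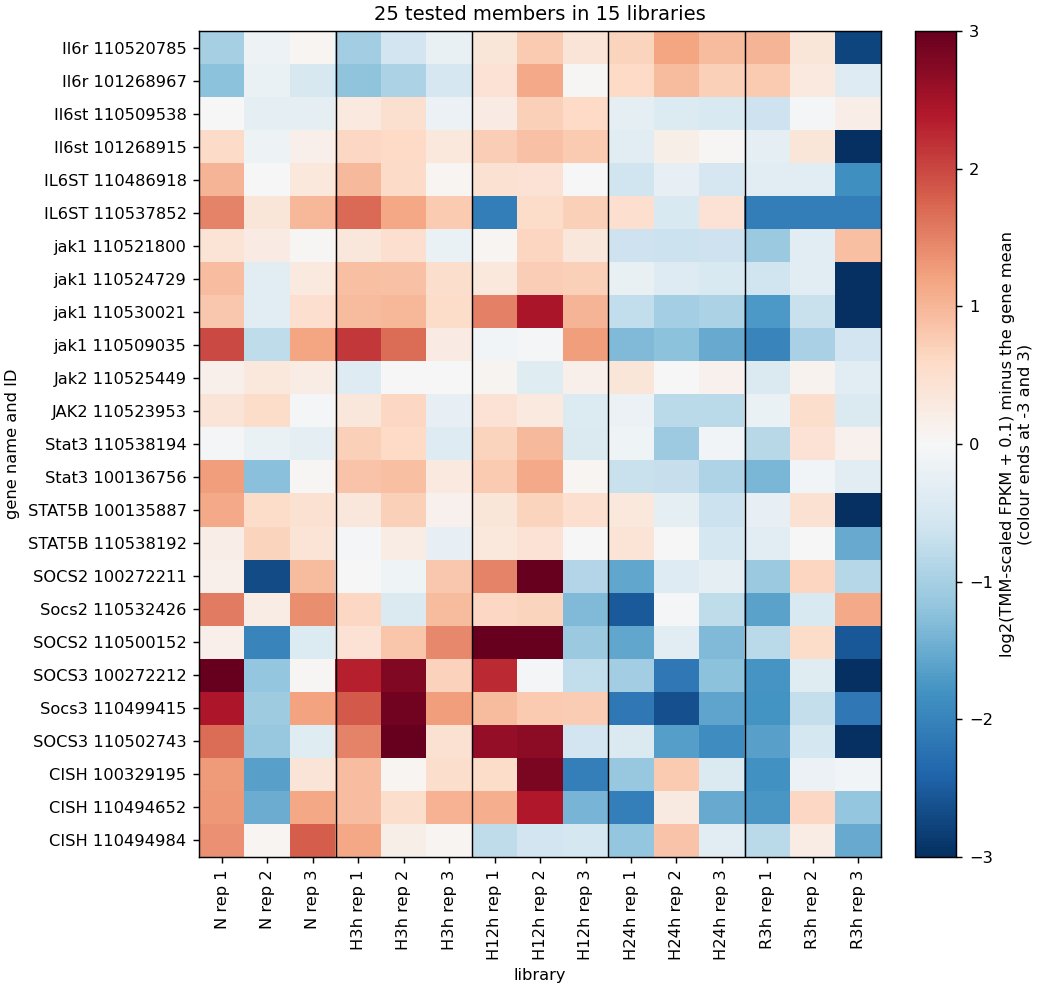
Heat map of the 25 tested members (rows, ordered by role) in the 15 libraries (columns), as log2(TMM-scaled FPKM + 0.1) minus the mean of the gene, with colours ending at -3 and 3. Most SOCS and JAK rows are blue (below their mean) in the H24h and R3h columns, and the 2 Il6r rows are red in H24h.

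Both copies of the receptor chain gene il6r were expressed at about the same level, averaging 24.03 and 24.01 FPKM over the 15 libraries. Il6r 101268967 (chromosome 2, 3069601 to 3076555, minus strand; the genome build is not given in the sources used here) had 12.43, 19.12 and 20.44 FPKM in N and 13.29, 12.79 and 18.53 in H3h. It had 24.44, 35.10 and 21.85 FPKM in H12h, 35.66, 32.00 and 40.17 in H24h, and 31.29, 27.35 and 15.72 in R3h. All H12h and H24h libraries lay above all N and H3h libraries, and R3h overlapped N only through R3h replicate 3.

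Il6r 110520785 (chromosome 3, 11107323 to 11117200, minus strand) had 13.67, 18.39 and 27.75 FPKM in N, 13.91, 15.35 and 20.92 in H3h, and 21.52, 25.72 and 26.00 in H12h. H24h gave 34.90, 34.80 and 43.78 FPKM, and R3h gave 34.46, 26.51 and 2.74. The H24h libraries were above those of every earlier group in FPKM, though on TMM-scaled FPKM they overlapped H12h, and R3h replicate 3 held the lowest value of all 15. Il6r 101268967 rose in H24h relative to H3h (log2 change 1.63 ± 0.39 SE, edgeR adjusted p = 0.0418). The other copy differed by 1.53 ± 0.63 in that comparison and did not pass (0.143). Without R3h replicate 3, both copies passed for H24h against H3h, at 1.66 and 1.56 on the log2 scale with adjusted p of 0.0174 and 0.0176. The call of Il6r 101268967 was lost without N replicate 3, without any of the 3 H3h libraries, without H12h replicate 1 and without any of the 3 H24h libraries, with adjusted p up to 0.15. Those fits called only 0% to 1.66% of all genes in H24h against H3h, against 4.47% with all libraries. In that comparison the call of Il6r 101268967 held in 7 of 15 fits and that of Socs3 110499415 in 10. Relative to N, the H24h differences were 1.34 ± 0.39 for Il6r 101268967 (adjusted p = 0.121) and 1.24 ± 0.63 for Il6r 110520785 (0.291), and neither passed. In R3h against N they were 0.88 ± 0.39 (edgeR adjusted p = 0.166) and 0.50 ± 0.62 (0.629) in the same order. Without R3h replicate 3 they were 1.15 (0.0815) and 1.04 (0.0919), which did not pass either.

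The signal-transducing chain gene il6st did not follow il6r. Its most expressed copy, Il6st 110509538 (chromosome 29, 4342959 to 4397579, minus strand), had 11.23, 6.76 and 8.83 FPKM in N, 14.39, 12.93 and 8.74 in H3h, and 8.16, 9.96 and 12.32 in H12h. It had 7.25, 4.66 and 6.73 FPKM in H24h and 4.43, 8.10 and 8.88 in R3h. The H24h libraries lay below every H3h and H12h library. They overlapped N in FPKM but lay below every N library on TMM-scaled FPKM, and no comparison called this gene.

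Il6st 101268915, which RefSeq names gp130, averaged 5.83 FPKM and IL6ST 110486918 averaged 0.82 FPKM, and neither was called. In R3h replicate 3 they had 0.10 and 0.11 FPKM, against 3.10 to 5.99 and 0.43 to 0.52 in the other R3h libraries. The weakest tested copy, IL6ST 110537852 (chromosome 12, 54866927 to 54877131, minus strand), had 149, 58 and 136 counts in N, 258, 114 and 119 in H3h, and 0, 40 and 86 in H12h. It had 68, 24 and 69 counts in H24h and no count in any R3h library. Every R3h library was thus below every library of N, H3h and H24h, while 1 H12h library was also at 0. With a floor of 3 counts per library, or at most 0.0243 FPKM in R3h, the N mean of 0.933 ± 0.5 FPKM (SD, n = 3) was 38.4 times that floor. This bound holds for the N mean in FPKM only. With TMM factors of 0.977 to 1.32 in N and 0.81 to 0.99 in R3h it would be smaller. The lowest N library had 0.43 FPKM. IL6ST 110537852 fell in R3h relative to N with an adjusted p of 0.0216 and relative to H3h with 0.0145 in edgeR. It had passed the filter only through N and H3h, at 0.933 and 1.13 FPKM, against 0.313 in H12h, 0.393 in H24h and 0 in R3h. A lower value in R3h thus partly follows from the filter. Both calls were lost with only the groups compared in the fit (0.177 and 0.107), where 0% of all genes were called in either comparison. The call against N was lost without N replicate 1 (adjusted p = 0.0925), N replicate 3 (0.0947) or R3h replicate 1 (0.0519), and the call against H3h without H3h replicate 1 (0.062). R3h against N called 0.0628%, 0.04% and 1.62% of genes in those fits, against 5.34% with all libraries. R3h against H3h without H3h replicate 1 called 0.0628% of genes, against 8.94%. Both calls held without R3h replicate 3. Because this copy is weak and others are strong, the il6st sum shows little of it: the sum was 10.6 ± 3.56 FPKM in R3h and 17.8 ± 5.99 FPKM in N.

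The ratio of summed il6r to summed il6st within a library needs no scaling between libraries. It was 1.09, 3.14 and 2.75 in N and 0.968, 1.23 and 2.29 in H3h. H12h gave 2.99, 3.53 and 2.24, H24h gave 5.8, 7.31 and 6.48, and R3h gave 8.26, 3.69 and 2.03. The 3 H24h libraries held the highest values apart from R3h replicate 1.

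**Figure D2:**
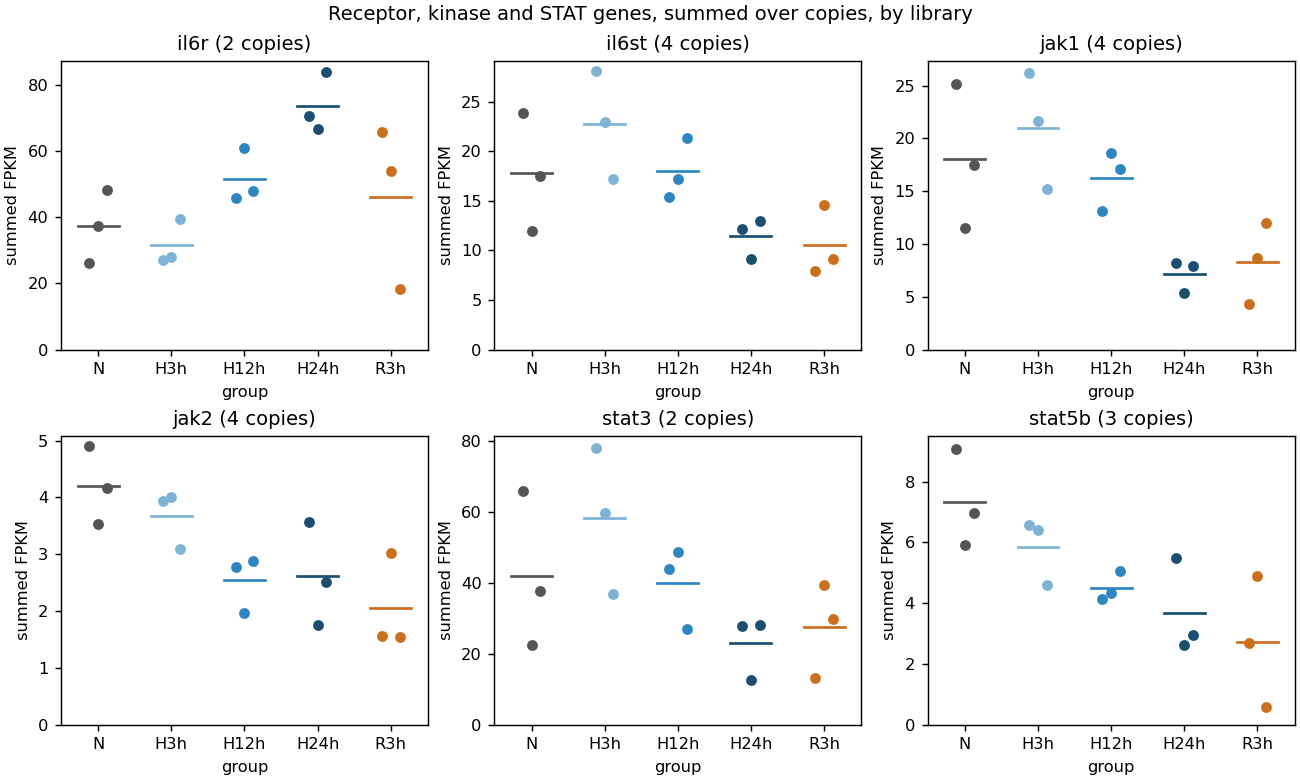
FPKM summed over all copies of each receptor, kinase and STAT gene (vertical axes, linear) for the 15 libraries by group (horizontal axis), with points for libraries and bars for group means. Summed il6r is highest in H24h, where it averaged 73.8 FPKM, and summed il6st and jak1 are lowest in H24h and R3h.

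Among the kinase genes, jak1 was expressed above jak2. JAK1 is the kinase that gp130 depends on most in mammals. The most expressed copy, jak1 110521800 (chromosome 4, 34928334 to 34981854, plus strand), had 11.92, 7.89 and 8.83 FPKM in N, 11.92, 10.60 and 6.87 in H3h, and 5.70, 7.54 and 8.27 in H12h. It had 4.6, 3.16 and 4.73 FPKM in H24h and 2.5, 5.31 and 11.58 in R3h. The H24h libraries lay below all libraries of N, H3h and H12h, and the R3h libraries spread across the whole range. This copy was not called with all libraries.

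The jak1 copy with the smallest p over the 5 groups was jak1 110530021 (chromosome 8, 45897246 to 45918442, minus strand). It had 4.45, 1.46 and 3.43 FPKM in N, 5.08, 4.22 and 3.30 in H3h, and 4.48, 7.64 and 3.75 in H12h. It had 1.14, 0.64 and 1.01 FPKM in H24h and 0.40, 1.12 and 0.08 in R3h. All 6 H24h and R3h libraries were below all 9 libraries of N, H3h and H12h. It fell in R3h relative to H3h (log2 change -2.59 ± 0.66, edgeR adjusted p = 0.0313). That call was lost with only the groups compared in the fit (0.155), where 0% of genes were called. The call was also lost without H3h replicate 1 (0.101), H3h replicate 2 (0.0942), H3h replicate 3 (0.0534) or R3h replicate 1 (0.0993). Those fits called 0.0628%, 0.851%, 3.94% and 3.11% of genes in this comparison, against 8.94% with all libraries. Leaving out R3h replicate 3 gave -2.06 with an adjusted p of 0.0242. The values for R3h against N (-2.14 ± 0.65, adjusted p = 0.0664) and H24h against H12h (-2.80 ± 0.67, 0.104) did not pass. With R3h replicate 3 left out, H24h against H12h passed at 0.0356.

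Both remaining jak1 copies had their highest means in H3h. jak1 110524729 averaged 2.0 ± 0.455 FPKM in H24h and 5.73 ± 1.2 in H3h (SD, n = 3 each). The weak copy jak1 110509035 had 0.04 to 0.06 FPKM in H24h, against 0.43 to 2.23 in H3h. It had passed the filter only through N and H3h (means 1.02 and 1.31 FPKM), so a lower call in H24h partly follows from the filter. Neither of the remaining copies was called with all 15 libraries, where the adjusted p for H24h against H3h was 0.188 and 0.0504. Without R3h replicate 3, all 4 jak1 copies were called lower in H24h than in H3h, in a fit that called 17% of all genes there against 4.47% with all libraries. Their log2 changes were -4.17 for jak1 110509035, -1.81 for jak1 110530021, -1.14 for jak1 110524729 and -0.86 for jak1 110521800, with adjusted p between 0.0192 and 0.0485.

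JAK2, the kinase of the growth hormone receptor, was low. Its most expressed copy, Jak2 110525449 (chromosome 6, 17612667 to 17651379, minus strand), had 2.19, 1.82 and 2.21 FPKM in N, 1.54, 1.65 and 1.74 in H3h, and 1.26, 0.80 and 1.60 in H12h. It had 2.03, 1.08 and 1.76 FPKM in H24h and 0.86, 1.57 and 1.07 in R3h. The R3h, H12h and H3h libraries all lay below the N libraries in FPKM, but H12h overlapped N on TMM-scaled FPKM. JAK2 110523953 ranged between 0.28 and 1.32 FPKM, and no comparison called either copy.

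STAT3, the transcription factor that gp130 activates, was the most abundant STAT among the members. Stat3 110538194 (chromosome 12, 67376408 to 67399540, minus strand) had 26.17, 17.36 and 21.42 FPKM in N, 46.50, 34.09 and 18.63 in H3h, and 26.59, 28.74 and 14.51 in H12h. It had 19.58, 7.03 and 21.13 FPKM in H24h and 9.37, 27.61 and 20.74 in R3h. All 4 later groups overlapped N, and the test over 5 groups gave an adjusted p of 0.447. Stat3 100136756 on chromosome 13 averaged 7.04 ± 1.3 FPKM in H24h, 25.2 ± 6.81 in H3h and 20.4 ± 17.7 in N (SD, n = 3 each). Its H24h libraries were all below those of H3h and H12h, at -1.48 ± 0.53 relative to H3h on the log2 scale, but the adjusted p of 0.103 did not pass.

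STAT5B carries the growth hormone signal in liver. Its most expressed copy, STAT5B 100135887 (chromosome 13, 34391954 to 34414885, minus strand), had 6.34, 3.11 and 3.74 FPKM in N, 3.74, 3.93 and 2.75 in H3h, and 2.22, 2.46 and 2.95 in H12h. It had 2.80, 1.26 and 1.45 FPKM in H24h, 1.44 and 2.93 in R3h replicates 1 and 2, and no count in R3h replicate 3. All H12h, H24h and R3h libraries lay below the lowest N library in FPKM, but H12h and R3h overlapped N on TMM-scaled FPKM. No stat5b comparison passed, and the adjusted p over 5 groups was 0.784 for this copy and 0.354 for STAT5B 110538192. The stat3 and stat5b genes stand side by side in 2 places. On chromosome 13 the gap between STAT5B 100135887 and Stat3 100136756 is 72136 bases, and on chromosome 12 the gap between STAT5B 110538192 and Stat3 110538194 is 19248 bases, with all 4 genes on the minus strand. Despite this shared position, the stat3 copies had their highest mean in H3h and both of these stat5b copies in N.

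SOCS3, the inhibitor that STAT3 induces, was the most expressed of the feedback genes. The most expressed copy, SOCS3 100272212 (chromosome 13, 63294943 to 63297107, plus strand), had 123.13, 3.21 and 9.73 FPKM in N and 52.61, 57.54 and 14.48 in H3h. It had 29.04, 5.24 and 4.30 FPKM in H12h, 3.75, 1.20 and 3.45 in H24h, and 1.73, 5.76 and 0.66 in R3h. N replicate 1 stood far above the other N libraries, and H24h and R3h overlapped N through N replicate 2, while all H24h and R3h libraries were below all H3h libraries. The differences of -3.64 ± 1.21 in H24h and -3.58 ± 1.21 in R3h relative to N (log2, ± SE) had adjusted p of 0.149 and 0.0871 and did not pass.

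Socs3 110499415 (chromosome 20, 32796591 to 32802732, minus strand) had 27.22, 1.68 and 11.05 FPKM in N, 18.93, 31.38 and 10.68 in H3h, and 5.89, 4.62 and 6.14 in H12h. It had 0.80, 0.38 and 1.28 FPKM in H24h and 0.82, 2.23 and 0.70 in R3h. Every H24h library was below every N, H3h and H12h library, and R3h overlapped N only through N replicate 2. It fell relative to H3h both in H24h (log2 change -4.38 ± 0.78, edgeR adjusted p = 0.0247) and in R3h (-3.67 ± 0.76, 0.0172). The H24h call was lost without H3h replicate 1 or 2 or any H24h library (adjusted p 0.0545 to 0.106). Those fits called at most 0.429% of genes in H24h against H3h, against 4.47% with all libraries. The R3h call was lost without H3h replicate 1, H3h replicate 2 or R3h replicate 1 (0.0575 to 0.0649). Those fits called 0.0628%, 0.851% and 3.11% of genes in R3h against H3h, against 8.94% with all libraries. The R3h call was also lost with only the groups compared in the fit (0.109), where 0% of genes were called. Both held without R3h replicate 3.

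Relative to N, Socs3 110499415 fell in R3h (log2 change -2.94 ± 0.73, edgeR adjusted p = 0.0377). That call was lost with only the groups compared in the fit (0.255), where 0% of genes were called. It was also lost in 7 of the 15 fits that left out a library. Without N replicate 1 the difference was -1.95 and the adjusted p 0.16. The call was also lost without N replicate 3 (0.116), H3h replicate 1 (0.0519), H12h replicate 1 (0.0548), H24h replicate 2 (0.0534), R3h replicate 1 (0.113) or R3h replicate 3 (0.068). Without N replicate 1 or 3, R3h against N called 0.0628% and 0.04% of all genes, against 5.34% with all libraries. In the others it called 1.62% to 6.52%. The H24h difference of Socs3 110499415 from N was larger than that of R3h, at -3.66 ± 0.76, but its adjusted p was 0.0773. It passed at 0.0358 without R3h replicate 3.

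SOCS3 110502743 (chromosome 23, 29760597 to 29769150, minus strand) averaged 0.823 ± 0.614 FPKM in H24h, 0.617 ± 0.672 in R3h, 10.7 ± 9.14 in H3h and 3.84 ± 4.27 in N (SD, n = 3 each). It was not called with all libraries, at -3.44 ± 1.19 for H24h against H3h with an adjusted p of 0.0918. All 3 socs3 copies were called lower in H24h than in H3h once R3h replicate 3 was left out (adjusted p 0.0128 to 0.0497), where 17% of all genes were called. The ratio of summed socs3 to summed stat3 was 2.41, 0.255 and 0.604 in N, 1.02, 1.83 and 0.773 in H3h, and 1.03, 0.401 and 0.433 in H12h. It was 0.218, 0.157 and 0.186 in H24h and 0.228, 0.237 and 0.0464 in R3h. All H24h and R3h ratios were below those of the other 9 libraries, so socs3 was low also relative to the gene of its activator.

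**Figure D3:**
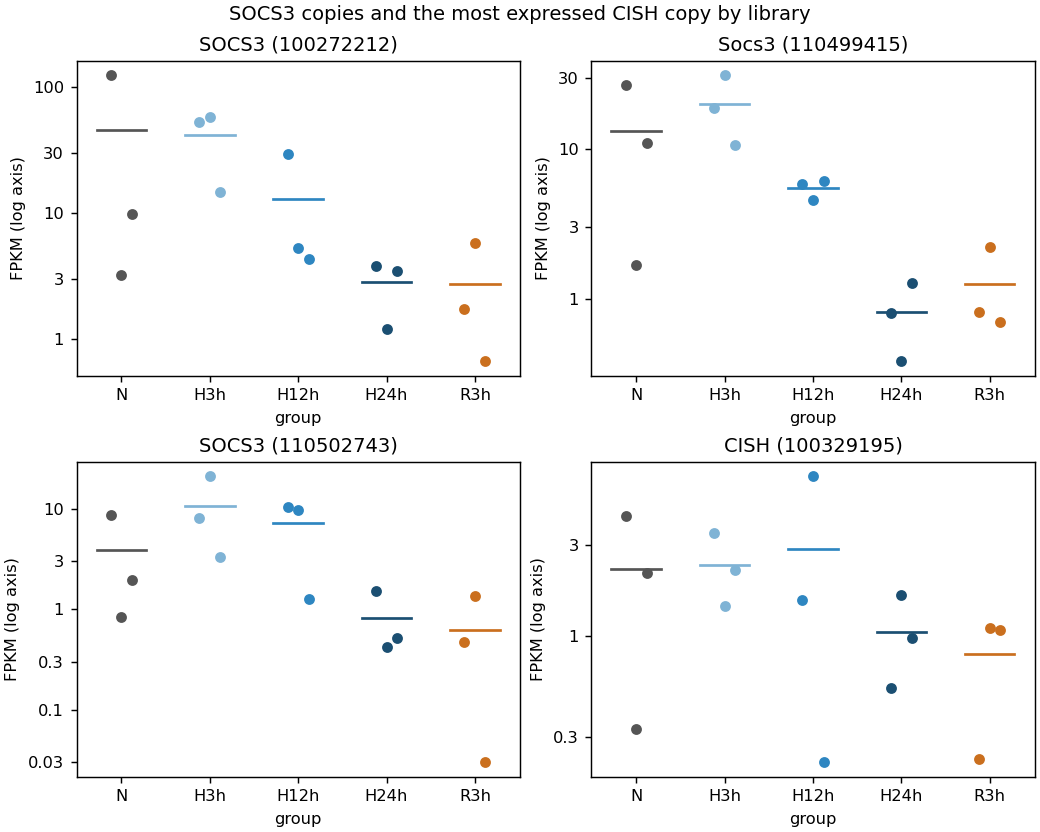
FPKM on a log axis for the 3 socs3 copies and the most expressed cish copy in the 15 libraries by group, with points for libraries and bars for group means. The H24h libraries of Socs3 110499415 lie between 0.38 and 1.28 FPKM, below every library of N, H3h and H12h, and N spans 1.68 to 27.22 FPKM.

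Among the growth hormone feedback genes, summed socs2 was at 4.48 ± 2.81 FPKM in N livers, 4.5 ± 1.71 FPKM in H3h, 8.41 ± 7.24 FPKM in H12h, 1.14 ± 0.586 FPKM in H24h and 2.01 ± 1.15 FPKM in R3h (SD, n = 3 each). Summed cish was at 6.09 ± 4.44 FPKM in N livers, 5.64 ± 2.13 FPKM in H3h, 5.13 ± 5.25 FPKM in H12h, 1.95 ± 1.17 FPKM in H24h and 1.8 ± 1.37 FPKM in R3h. Both sums, like that of socs3, had their lowest means in H24h and R3h. The most expressed copy of socs2, SOCS2 100272211 (chromosome 15, 50357695 to 50364604, plus strand), had 1.20, 0.04 and 2.1 FPKM in N, 1.13, 0.80 and 1.76 in H3h, and 1.98, 9.21 and 0.38 in H12h. It had 0.22, 0.44 and 0.72 FPKM in H24h and 0.26, 1.30 and 0.37 in R3h. H12h replicate 2 held the highest value, and H12h replicates 1 and 3 lay within the range of N in FPKM. SOCS2 110500152 also had its highest mean in H12h, with 5.66, 5.06 and 0.22 FPKM there against 0.92, 0.08 and 0.56 in N. Its difference of 3.52 ± 1.19 (log2) between H12h and N had an adjusted p of 0.199, and that of SOCS2 100272211, 2.58 ± 1.14, had 0.323. Socs2 110532426 ran differently, with 1.23, 1.12 and 0.31 FPKM in H12h, 0.09, 0.68 and 0.57 in H24h and 3.97, 1.10 and 3.40 in N.

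CISH 100329195 (chromosome 7, 34875795 to 34879986, minus strand) had 4.23, 0.33 and 2.13 FPKM in N, 3.43, 1.44 and 2.21 in H3h, and 1.54, 6.79 and 0.22 in H12h. It had 0.54, 1.64 and 0.98 FPKM in H24h and 0.23, 1.10 and 1.08 in R3h. No group stood clear of N, and the values within N and within H12h differed more than the group means. CISH 110494652 averaged 0.45 FPKM in H24h, 0.693 FPKM in R3h and 2.18 FPKM in N. CISH 110494984 had 0.19, 0.20 and 0.28 FPKM in H12h, all below its 1.81, 0.48 and 2.41 in N, with a difference of -2.17 ± 0.78 and an adjusted p of 0.224. It had passed the filter only through N and H3h (means 1.57 and 0.93 FPKM), so its lower values in H12h partly follow from the filter. No socs2 or cish copy was called in any comparison with all 15 libraries.

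Counts of called members against N differed between tools. The edgeR test called 0 of 25 members in H3h, where 0% of genes were called. It called 0 in H12h (0.223% of genes), 0 in H24h (0.2% of genes) and 2 in R3h, both lower (5.34% of genes). The members called in R3h were Socs3 110499415 and IL6ST 110537852. At an unadjusted p under 0.05 the counts were 0 members in H3h (2.19% of genes), 6 in H12h (14.3%), 8 in H24h (19.7%) and 10 in R3h (26.6%). DESeq2 called 0, 1, 4 and 6 members in H3h, H12h, H24h and R3h, where it called 0.08%, 4.73%, 7.2% and 15.9% of genes. limma on log2(FPKM + 1) called 0, 0, 0 and 7 members, with 0.00571%, 0.137%, 0.28% and 10.8% of genes. limma-voom with library weights called 0, 8, 14 and 10 members, with 0.0229%, 39.4%, 46.8% and 36.3% of genes, so its counts lie near its own background. These 4 comparisons share the N libraries.

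The members' fold changes against N leaned downward late in the series. Their median log2 fold change was 0.12 in H3h (all genes 0.0), 0.23 in H12h (-0.07), -0.93 in H24h (-0.05) and -1.02 in R3h (-0.04). In H24h, 23 of 25 members had a negative value, the exceptions being the 2 Il6r copies. In R3h, 20 of 25 were negative, and the median did not move with IL6ST 110537852 set at its bound. In both groups the negative values included IL6ST 110537852, jak1 110509035 and CISH 110494984, which had passed the filter only through N and H3h. Their values here, and their part in the counts by libraries below, thus partly follow from the filter. On the log2(FPKM + 1) scale, where the median of all genes shifted by -0.35 in H12h, by -0.22 in H24h and by -0.29 in R3h, the members' medians were -0.19, -0.6 and -0.81 in those groups, so the sign of the H12h value turned. Counted by libraries on TMM-scaled FPKM, 9 members had all H24h libraries below all N libraries and 2 had them all above, against 17.2% and 14.6% of genes. For R3h the counts were 5 below and 0 above, against 14.6% and 13.3% of genes. On FPKM, 5, 9 and 6 members had all H12h, H24h and R3h libraries below all N libraries, against 28%, 19.4% and 21.6% of genes.

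**Figure D4:**
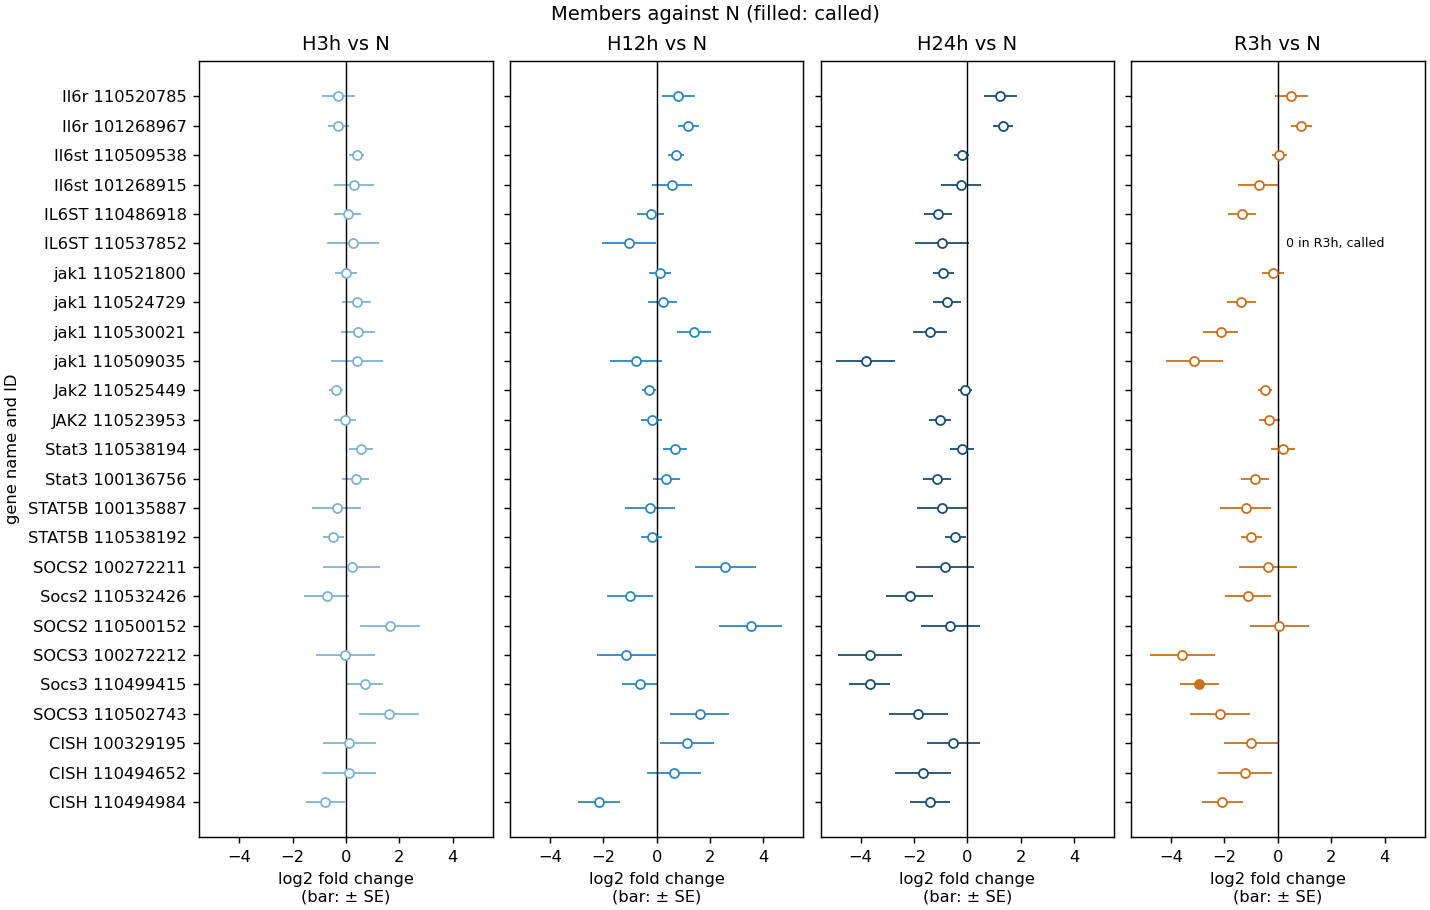
Log2 fold change of each tested member against N (horizontal axis, with bars of ± 1 SE) in H3h, H12h, H24h and R3h, with filled points for called genes. In H24h 23 of 25 members lie left of 0 and both Il6r copies lie right of it, while filled points appear in R3h for Socs3 110499415 and for IL6ST 110537852, which has no count there and is marked by words in place of a point.

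The comparisons of H24h and R3h with H3h were added because most members were highest in H3h, so lower calls in them partly restate that choice. By mean FPKM, 13 of 25 members were highest in H3h, 6 in N, 4 in H12h, 2 in H24h and 0 in R3h, and 11 were lowest in H24h and 11 in R3h. Over all tested genes, 36.1% were highest in H3h, 16% were lowest in H24h and 29% were lowest in R3h. At an unadjusted p under 0.05, H24h against H3h held 11 members (26.8% of genes) and R3h against H3h 10 (29.2%). All H24h libraries lay below all H3h libraries for 17 members on FPKM (28.9% of genes) and 15 on TMM-scaled FPKM (22.6%). For R3h against H3h these counts were 15 (28.4%) and 10 (17.3%). H24h against H3h called 2 members, Il6r 101268967 higher and Socs3 110499415 lower, with 4.47% of genes called. R3h against H3h called 3, all lower, with 8.94% of genes called: Socs3 110499415, jak1 110530021 and IL6ST 110537852. Without R3h replicate 3 the counts were 9 members for H24h against H3h (17% of genes) and 7 for R3h against H3h (12.5%), of which the 2 Il6r copies were higher in both. The H24h and R3h comparisons share the H3h libraries.

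Between neighbouring times the edgeR test called 0 members for H12h against H3h (0.0171% of genes), 0 for H24h against H12h (0% of genes) and 0 for R3h against H24h (0% of genes). For R3h against H12h it called 0 (0.0914% of genes). At an unadjusted p under 0.05 these 4 comparisons held 1, 11, 1 and 11 members, where all genes gave 16%, 14.5%, 7.36% and 20.6%. DESeq2 called 1, 7, 1 and 7 members in them (4.55%, 4.59%, 0.291% and 8.42% of genes). limma on log2(FPKM + 1) called 0, 0, 0 and 1 (0.04%, 0.0571%, 0% and 0.263%), and limma-voom 2, 12, 0 and 7 (19.9%, 25.8%, 0.0114% and 17%). On TMM-scaled FPKM, 9 members lay entirely below in R3h against H12h (9.95% of genes). In H24h against H12h, 11 members lay entirely below, against 12.5% of genes. They were both of the stronger il6st copies and IL6ST 110486918, all 4 jak1 copies, Stat3 100136756, STAT5B 100135887, SOCS3 100272212 and Socs3 110499415.

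**Figure D5:**
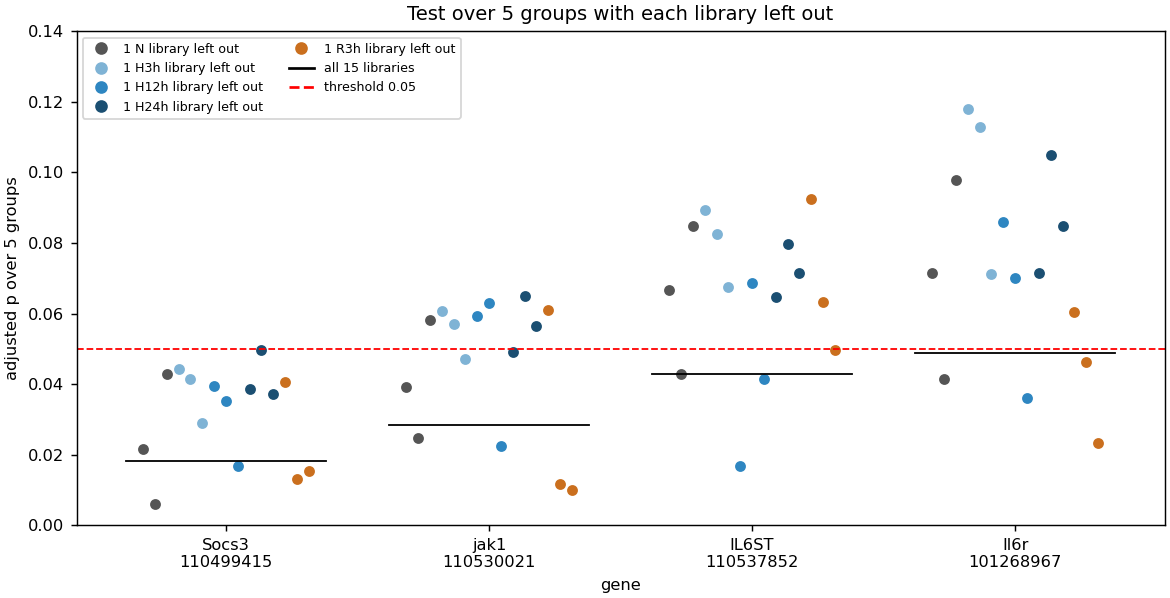
Adjusted p of the test over 5 groups (vertical axis, linear) for the 4 called members (horizontal axis), with 1 point for each of the 15 libraries left out, coloured by its group, a solid line for all 15 libraries and a dashed line at 0.05. Socs3 110499415 stays at or under 0.0496 throughout, while Il6r 101268967, jak1 110530021 and IL6ST 110537852 cross the line.

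Single libraries of a group were often high or low for many members at once. On TMM-scaled FPKM, N replicate 1 was the highest N library for 18 of 25 members (37.4% of genes) and N replicate 2 the lowest for 17 (41.7%). In H12h, replicate 2 was the highest for 17 (33.3% of genes) and replicate 3 the lowest for 15 (36.3%). In R3h, replicate 2 was the highest for 16 members (34.3% of genes) and the lowest for 0 (29.7%). H3h replicate 3 was the lowest H3h library for 17 (32.8%).

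Summed markers of other cells also varied between libraries. Summed FPKM of the neutrophil markers without lect2, which liver itself makes, was 344, 19.4 and 109 in N and 177, 148 and 148 in H3h. The sum ran from 30.1 to 40.3 FPKM in H12h, 25.7 to 34.3 FPKM in H24h and 14.7 to 47.9 FPKM in R3h, with all 7 marker symbols found and none at 0. N replicate 1 was highest and N replicate 2 lowest of the N libraries in this sum, as in summed socs3 (159.08, 5.73 and 22.74 FPKM in N replicates 1, 2 and 3). The orders also matched in H24h and R3h. In H12h they were opposite, at 30.1, 33.9 and 40.3 FPKM for the markers and 45.45, 19.49 and 11.71 for socs3. In H3h the marker sum was highest in replicate 1 and socs3 in replicate 2. The 13 tested genes of this list had a median log2 fold change of -0.36 in H24h against N, with 0 called (0.2% of all genes). Lymphocyte markers summed to 9.99 to 22.3 FPKM in N livers, 21 to 32.7 FPKM in H3h, 13.8 to 21.2 FPKM in H12h, 7.53 to 9.77 FPKM in H24h and 6.34 to 13.6 FPKM in R3h, with 6 of 11 symbols found and none at 0. Macrophage markers summed to 110 to 280 FPKM in N livers, 102 to 162 FPKM in H3h, 146 to 167 FPKM in H12h, 115 to 336 FPKM in H24h and 44.8 to 161 FPKM in R3h, with 4 of 10 symbols found. Their part in the member results was not tested. Of the hepatocyte markers 8 of 12 symbols were found, none at 0, at summed levels between 15500 and 60400 FPKM, in accord with the tissue label.

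Over the 15 libraries, the gene whose log2(FPKM + 1) was most like that of SOCS3 100272212 was MAPK6, a MAP kinase (Pearson r = 0.95, n = 15 libraries), followed by CLCN5, Sec14l1, Kpna3 and Ptgfrn (each 0.94). Among members, Socs3 110499415 had r = 0.92, IL6ST 110486918 0.91, Stat3 100136756 0.88 and SOCS3 110502743 0.86, while Il6r 101268967 had -0.65 and Il6r 110520785 had -0.14. For CISH 100329195 the nearest genes were BTG3 (0.86), Tnfrsf26 and SFXN1 (each 0.84), and Ikzf4 and ARHGAP15 (each 0.83), while the member CISH 110494652 had 0.91. These values describe shared variation, including that of 15 libraries in scale, depth and cell content.

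Partners of the pathway that are not members were set beside them from a list. Of 67 listed genes 38 were tested, and R3h against N called 3 lower and 1 higher (5.34% of all genes called), with a list median of -0.62 on the log2 scale (all genes -0.04). Without R3h replicate 3 it called 5 lower and 1 higher (6.52% of all genes). TYK2 110486365, another JAK-family kinase, fell, with 1.03 ± 0.61 FPKM in R3h and 3.85 ± 1.68 in N (SD, n = 3 each; log2 change -1.49 ± 0.39, edgeR adjusted p = 0.0447), but the call held in 2 of 15 fits that left out a library. SOCS6 110530365, another SOCS-box gene, rose, with 1.64 ± 0.214 FPKM in R3h and 1.04 ± 0.161 in N (1.04 ± 0.25, 0.035), and held in 8.

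Of 101 listed targets of STAT3 and genes of the acute phase, 81 were tested. R3h against N called 3 higher and 0 lower, with a list median of 0.05, in a comparison that called 5.34% of all genes, and 5 higher and 0 lower without R3h replicate 3 (6.52% of genes). H12h against N had a list median of 0.74 with 66 of 81 genes positive, and edgeR called 0 there (0.223% of all genes). At an unadjusted p under 0.05 in edgeR there were 18 (14.3% of genes), and DESeq2 called 9 (4.73%). H24h against H3h called 4 higher and 4 lower (4.47% of genes). CRP 110491696, an acute-phase pentraxin, rose, with 485 ± 84.3 FPKM in R3h and 148 ± 21 in N (2.09 ± 0.32, edgeR adjusted p = 0.0123), a call that held in 13 of 15 fits. ITIH4 110528434, a plasma inhibitor chain, averaged 11.6 ± 7.78 FPKM in R3h and 2.75 ± 1.11 in N (2.45 ± 0.64, 0.0444) and held in 4. TIMP2 110487075, a protease inhibitor, averaged 267 ± 178 FPKM in R3h and 80.7 ± 5.78 in N (2.14 ± 0.54, 0.0396) and held in 5. APCS 100136775, serum amyloid P, averaged 4260 ± 3230 FPKM in R3h and 871 ± 682 in N and did not pass (0.0967). Means of these genes were above N in H12h and H24h too, so higher values were not particular to R3h, though no such difference passed. In H12h and H24h, CRP averaged 278 and 257 FPKM, ITIH4 18.5 and 7.7, TIMP2 190 and 288, and APCS 2440 and 2620.

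The growth hormone list had 23 of 39 genes tested. In R3h against N, where 5.34% of all genes were called, 1 was called, lower: igf1 110500054, the hormone's main liver product. It averaged 2.07 ± 1.38 FPKM in R3h and 22.8 ± 15.6 in N (-3.15 ± 0.71, edgeR adjusted p = 0.0306), a call lost without N replicate 1, N replicate 3, R3h replicate 1 or R3h replicate 3 (up to 0.122). Its means in H3h, H12h and H24h were also below N, at 5.77, 6.21 and 5.44 FPKM, and did not pass. In H24h relative to H3h, IGFBP1 101268901, an IGF-binding protein, fell, with 5.0 ± 2.87 FPKM in H24h and 122 ± 11.3 in H3h (-4.29 ± 1.13, 0.0473), and held in 4 of 15 fits. In that comparison igfbp2a 110528844 rose, with 28.5 ± 3.57 FPKM in H24h and 10 ± 0.306 in H3h (1.88 ± 0.41, 0.0338), and held in 7. In N, IGFBP1 averaged 18.3 ± 21.5 FPKM, below its H3h mean, and igfbp2a 17.1 ± 8.68, above its H3h mean. Relative to N, neither passed in H24h (-1.45 and 1.13 on the log2 scale, edgeR adjusted p = 0.44 and 0.163). Irs2 110501605, an insulin receptor substrate, averaged 0.267 ± 0.15 FPKM in H24h and 1.71 ± 0.54 in H3h and did not pass (0.171).

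Of 12 genes listed for hypoxia, 11 were tested. The list was chosen with earlier results of these data known, so it is no independent check on the labels. The edgeR test against N called 4 of the 11 in H12h (0.223% of all genes) and 2 in R3h (5.34%), all higher, and 0 in both H3h (0%) and H24h (0.2%). The list medians were 0.42 for H3h, 3.19 for H12h, 1.17 for H24h and 1.58 for R3h. At an unadjusted p under 0.05 in edgeR there were 3 in H3h (2.19% of all genes) and 4 in H24h (19.7%), and DESeq2 called 2 (0.08%) and 4 (7.2%). The list median in R3h was thus above that in H24h. In H12h, Egln3 110505778, an oxygen-sensing hydroxylase, averaged 13.3 ± 3.76 FPKM in H12h and 0.243 ± 0.0473 in N (6.26 ± 0.88, edgeR adjusted p = 0.018) and held in 11 of 15 fits. The other three were ero1a 110505225 (5.01 ± 0.73, 0.0187), hif1an 101268916 (4.12 ± 0.68, 0.0262) and ddit4 110531799 (8.09 ± 1.5, 0.0459), which held in 10, 9 and 2 fits in that order. On the glucocorticoid list, which includes the receptor gene nr3c1, 12 genes were tested. Its medians against N were 1.04 for H3h, 2.03 for H12h, -0.28 for H24h and 0.64 for R3h. At an unadjusted p under 0.05 in edgeR there were 8 in H12h (14.3% of all genes), and DESeq2 called 6 (4.73%). The edgeR test called 1 in H12h against N (0.223% of all genes), Tsc22d3 110504506. Tsc22d3 was at 38 ± 24.2 FPKM in H12h and 5.26 ± 1.15 in N (3.46 ± 0.58, 0.0268), and it held in 9 fits. In R3h against N (5.34% of all genes) it was again the gene called, at 27.6 ± 6.02 FPKM in R3h (2.79 ± 0.56, 0.0223), and it held in 12 fits. Its H3h mean was 29 ± 9.44 FPKM. FKBP5 110528325, a glucocorticoid-induced chaperone, averaged 49.7 ± 33.3 FPKM in H12h and 4.35 ± 4.55 in N (0.0625), DUSP1 110504465, a MAP kinase phosphatase, 61.8 ± 53.4 FPKM in H12h and 5.91 ± 7.82 in N (0.134), and Per1 110533944, a clock gene, 1.06 ± 0.741 FPKM in H12h and 0.7 ± 0.455 in N (0.334).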

How the data were processed

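The deposited table holds raw counts per gene for 34965 genes in 15 libraries, and the same table gives FPKM computed by the authors, per the file headers. Reads were handled with Bowtie2 2.2.8 and TopHat2 2.1.1, per the submitters' processing notes. The sources used here do not state the build, the annotation, the counter or the strand setting, so reads of overlapping or antisense genes cannot be separated, and coordinates are those of the table. No library was left out and no 2 libraries were identical.

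Counts were scaled by TMM and tested in edgeR 4.0.16 (R 4.3.3) with 5 group means and quasi-likelihood F-tests, two-sided, with Benjamini-Hochberg adjustment over 17502 genes. These genes averaged 0.5 FPKM or more and held at least 99.0% of the counts of each library. The SE of a log2 fold change is its size divided by the square root of F, an approximation. Alternatives used RLE scaling, DESeq2 1.42.0, limma 3.58.1 (on log2 FPKM with a pseudocount of 1 or 0.1, and voom), other filters, only the groups compared, a replicate block and leaving out each library.

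The members and the lists were chosen with earlier results of these data known. Values per library are given for called members and for the most expressed copy of each symbol, and lists show the 4 genes with the smallest p over the 5 groups, except for results not reported here. Comparisons of H24h and R3h with H3h, and of R3h with H12h, and the neutrophil sum without lect2, were added after values were seen. FOSB and BCL6B, genes of their own, were kept out of the target lists. Of 30 members, 29 matched RefSeq (USDA_OmykA_1.1). With 3 libraries against 3, an exact permutation test cannot go below p = 0.1, so none was used. Marker lists were hepatocyte, macrophage, neutrophil, lymphocyte, erythrocyte, endothelium, cholangiocyte, stellate and exocrine pancreas.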

Additional observations from a re-analysis of the deposited data

How the results depend on the processing

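Scaling by RLE gave the same counts of called members as TMM in all 11 comparisons. DESeq2 called 10 members over the 5 groups, 1 in H12h against N, 4 in H24h against N, 6 in R3h against N, 1 in H12h against H3h, 7 in H24h against H12h, 1 in R3h against H24h, 7 in H24h against H3h, 9 in R3h against H3h and 7 in R3h against H12h. Its shares of all genes were 25.7%, 4.73%, 7.2%, 15.9%, 4.55%, 4.59%, 0.291%, 16.5%, 19.7% and 8.42% in this order. limma-voom with library weights called 19, 8, 14, 10, 2, 12, 0, 15, 9 and 7 in the same order, with 69.2%, 39.4%, 46.8%, 36.3%, 19.9%, 25.8%, 0.0114%, 35.9%, 26.4% and 17% of all genes. limma on log2(FPKM + 1) called 7 in R3h against N, 6 in H24h against H3h, 9 in R3h against H3h and 1 in R3h against H12h (10.8%, 9.34%, 16.6% and 0.263% of genes), and with a pseudocount of 0.1 it called 5, 3, 8 and 1 (8.36%, 5.01%, 14.5% and 0.103%). With only the groups compared in the fit, R3h against N called 0 (0% of genes), H24h against H3h 10 (18.5%) and R3h against H3h 0 (0%). A mean FPKM of at least 1 gave 1 in R3h against N (6.24% of genes) and 1 in R3h against H12h (0.399%). No filter gave 1 in H24h against H3h (1.23%) and 1 in R3h against H12h (0.132%). Over all genes, the 5-group test called 1267 with TMM (7.24%), 4502 with DESeq2 and 12104 with limma-voom.

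The replicate block gave 2 members over the 5 groups (3.5% of genes), 1 in R3h against N (3.59%), 1 in H24h against H3h (1.92%) and 4 in R3h against H3h (7.08%). Of 30 same-numbered pairs, 10 had a correlation over 0.1 of their deviations from the group means (range -0.252 to 0.412). Pairs with different numbers were not computed, so these values cannot tell whether the numbers pair the samples.

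Leaving out each library in turn, members called ran from 1 to 9 over the 5 groups, 0 to 1 in H24h against N, 0 to 4 in R3h against N, 0 to 2 in H24h against H12h, 0 to 1 in R3h against H24h, 0 to 9 in H24h against H3h, 0 to 7 in R3h against H3h and 0 to 3 in R3h against H12h. The shares of all genes ran, in the same order, from 1.14% to 15.3%, 0% to 3.91%, 0.04% to 14% and 0% to 2.25%. For the last 4 comparisons they ran from 0% to 0.0229%, 0% to 17%, 0.0628% to 16.4% and 0% to 8.11%. In H3h and H12h against N and in H12h against H3h the count of members stayed at 0, with at most 0%, 3.12% and 1.46% of genes called. No called value of the 13 members given by library changed sign under these settings, and 95 of 2854 uncalled ones did. The causes were not tested. Members under about 1 FPKM rest on few counts, and with 3 libraries in each group, small differences cannot be detected.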

Other observations

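Summed over their lists, the remaining cell-type markers were as follows. Erythrocyte markers reached 642 to 2090 FPKM in H24h, 333 to 1420 in R3h and 236 to 510 in N. Of 23 tested genes, 0 were called in H24h against N (0.2% of all genes) and 1 in R3h against N (5.34%). Endothelial markers were at 11.3 to 17.6 FPKM in H24h and 9.88 to 12.3 in N. Cholangiocyte markers lay between 113 and 325 FPKM in all libraries, stellate markers between 49.7 and 102, and exocrine pancreas markers between 0.2 and 5. With lect2 included, the neutrophil list summed to 4320 to 70200 FPKM.

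Values of R3h replicate 3 differed widely between copies. R3h replicate 3 had no count for STAT5B 100135887, Jak2 110536972 and JAK2 110496854, and 2.74 FPKM for Il6r 110520785, while Il6r 101268967 had 15.72 and jak1 110521800 had 11.58 FPKM there, the highest jak1 110521800 value of R3h.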
